A study of Mus musculus with 3 samples.

Results

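The Adora2a medium spiny neurons of the mouse nucleus accumbens were picked cell by cell from 3 single-cell libraries by their own transcripts. A kept cell was a member when Adora2a and Gpr6 together gave at least 2 UMIs, when Drd1, Slc17a7, Mog and Aqp4 gave none, and when at least 1 UMI came from the neuronal transcripts Snap25, Syt1, Meg3 or Snhg11. UMIs are tags put on each captured RNA molecule, so that its amplified copies count only once. This gate held 836 of the 10291 kept cells (8.12%), with 157, 516 and 163 members in libraries 1, 2 and 3. The 10 genes of the gate are no results here and were left out of every test.

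All 3 samples belonged to 1 group: Thy1::ChR2 mice, whose channelrhodopsin transgene is driven by the neuronal Thy1 promoter, labelled with FLiCRE while light was given in the nucleus accumbens, with tissue cut from a 400 um coronal slab. FLiCRE is a reporter system that turns calcium coinciding with light into transcription, and its parts appear in the matrix as the features mCherry, TEV and tTA. No unstimulated or unlabelled group was analysed here, the ages of the mice and the number behind each library are not given in the sources used here, and the libraries carry only a barcode number that no label ties to a numbered replicate. Comparisons were therefore made between cell classes within the same libraries. Their p-values measure how far the difference between classes varied from library to library, and that spread may be technical.

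Medium spiny neurons are GABAergic projection neurons and make up most neurons of the striatum. They fall into a direct pathway class, which carries the dopamine receptor Drd1 and the peptide precursor Tac1, and an indirect pathway class, which carries the dopamine receptor Drd2, the adenosine receptor Adora2a, the orphan receptor Gpr6 and the enkephalin precursor Penk. In the indirect class the Adora2a receptor stimulates the olfactory-type G protein encoded by Gnal and the adenylyl cyclase encoded by Adcy5, and so raises cAMP. Zinc finger factor Sp9 is needed for the development of this class.

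Depth per member cell differed between libraries: the median was 1069, 3022 and 2537 UMIs in libraries 1 to 3. Their summed counts were 184716, 1648077 and 544323 UMIs. Library 1 was thus the shallowest both per cell and in sum. Libraries shared 13, 7 and 22 barcode sequences in pairs, and 0 member barcodes occurred in 2 libraries. Both comparison classes were drawn from the same libraries. The Drd1 neurons passed the mirrored gate (at least 2 UMIs of Drd1, none of Adora2a, Gpr6, Slc17a7, Mog or Aqp4, and 1 neuronal UMI) and numbered 787, with 73, 545 and 169 per library. All other neurons were every remaining kept cell with at least 3 neuronal UMIs, 5205 cells in all.

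The gate had a graded edge. The 492 cells with exactly 1 UMI of Adora2a or Gpr6 and all other conditions met lay just outside, and Penk was seen in 79.5% of them. Of the 296 members with exactly 2 such UMIs, 95.6% held Penk, and of the 540 members with 3 or more, 98.1%. A further 61 cells with enough Adora2a and Gpr6 were kept out by Drd1, 130 by Slc17a7, Mog or Aqp4, and 5 by the lack of a neuronal transcript. Both gate genes were present in 430 members, Adora2a alone in 386 and Gpr6 alone in 20. Drd2, the receptor gene that usually names this class, gave 8 UMIs over all members, all in library 2, and 15 over all kept cells, so it could not be used as a marker.

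Penk and Sp9 are markers of this class that the gate did not use, and both were checked first. Summed Penk, as counts scaled to a library of 1000000 UMIs (CPM), was 6610, 7666 and 9474 in the members of libraries 1 to 3. In all other neurons it was 1627, 1367 and 1568 CPM. The groups did not overlap, and Penk was higher in members in 3 of 3 libraries (log2 fold change 2.38 ± 0.09 SE, adjusted p = 2.61e-12 in the quasi-likelihood test of edgeR). Sp9 was 75.8, 84.3 and 90.0 CPM in members and 22.9, 22.6 and 32.1 CPM in all other neurons, a difference of 1.75 ± 0.16 SE on the log2 scale (edgeR adjusted p = 5.79e-08). The comparison class still held cells with a single Adora2a or Gpr6 UMI. Without every cell that had one, the Penk difference was 3.10 on the log2 scale.

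Compared with all other neurons, members carried more of the spiny neuron programme and less of the listed markers of other neurons. Over all genes 1680 of 10559 tested passed an adjusted p of 0.05 in edgeR (15.9%), 576 higher (5.46%) and 1104 lower (10.5%) in members. All 16 listed spiny neuron markers were higher, with a median log2 fold change of 0.72 against -0.00 (to 2 decimals) over all genes tested. Pde10a, the phosphodiesterase typical of spiny neurons, was 1202, 934 and 931 CPM against 639, 490 and 412 CPM (log2 fold change 1.01 ± 0.09 SE). All 7 tested markers of Drd1 neurons and all 8 tested interneuron markers were lower, as were 4 of 5 markers of glutamatergic neurons. The gate excluded Drd1 and Slc17a7 from members only, so the directions of the Drd1 and glutamatergic markers are tied to it. Summed glutamatergic markers overlapped, at 999 to 1181 CPM in members and 937 to 1396 CPM in the others. Without library 1, 2 or 3, edgeR passed 1736, 597 and 423 genes, and 16, 13 and 11 of the 16 spiny markers.

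Among genes that passed with a mean of at least 20 CPM in members, those furthest above all other neurons were led by receptors and signalling proteins. P2ry1, a receptor for ADP, was 97.4, 82.5 and 112 CPM in members and 29.8, 16.9 and 10.3 CPM in the others (log2 fold change 2.504 ± 0.215 SE, edgeR adjusted p = 8.48e-08). After Penk came Grik3, a kainate receptor subunit (2.08), Nt5e, the ectoenzyme that makes adenosine from AMP (2.03), Sp9, and Fig4, a phosphoinositide phosphatase (1.60). Kctd8, an auxiliary subunit of GABA-B receptors, Gucy1a3, a subunit of the nitric oxide receptor guanylyl cyclase, Iqgap2, the receptor phosphatase Ptprm and the homeobox factor Zfhx3 were also among the 12 furthest above, with log2 fold changes from 1.23 to 1.33. Of the genes named here, only Iqgap2 had libraries that overlapped.

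The 12 named genes furthest below were led by Lingo2, a membrane protein with leucine-rich repeats, with 3 UMIs in all members against 640 in the others (34.2 times lower per UMI, exact counting interval 11.7 to 166). Bdnf, Neurod6, Tbr1 and Neurod2, a growth factor and transcription factors of cortical glutamatergic neurons, were among the rest. The exclusions of the gate (Drd1, Slc17a7, Mog, Aqp4) applied to members and not to the other neurons. The directions of genes of the cells that carry them are thus tied to the gate. Summed markers of oligodendrocytes reached 740 to 801 CPM in members and 1457 to 3454 CPM in the others. Those of astrocytes reached 272 to 437 CPM against 672 to 1576 CPM. In a further comparison both classes excluded Slc17a7, Mog and Aqp4 and had the same neuronal minimum, while the other neurons could still hold Drd1. Of 10290 genes tested, 847 passed, 348 higher and 499 lower in members. All 12 genes furthest above then passed again, as did Lingo2, Nr2f1, Tox and Pcdh8, while the other 8 of the 12 lower genes fell under the filter on low counts. In that comparison 13 of 16 spiny markers were higher, 1 of 5 astrocyte and 3 of 5 oligodendrocyte markers were lower, and 18 of 35 genes of adenosine and cAMP signalling were higher.

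**Figure D1:**
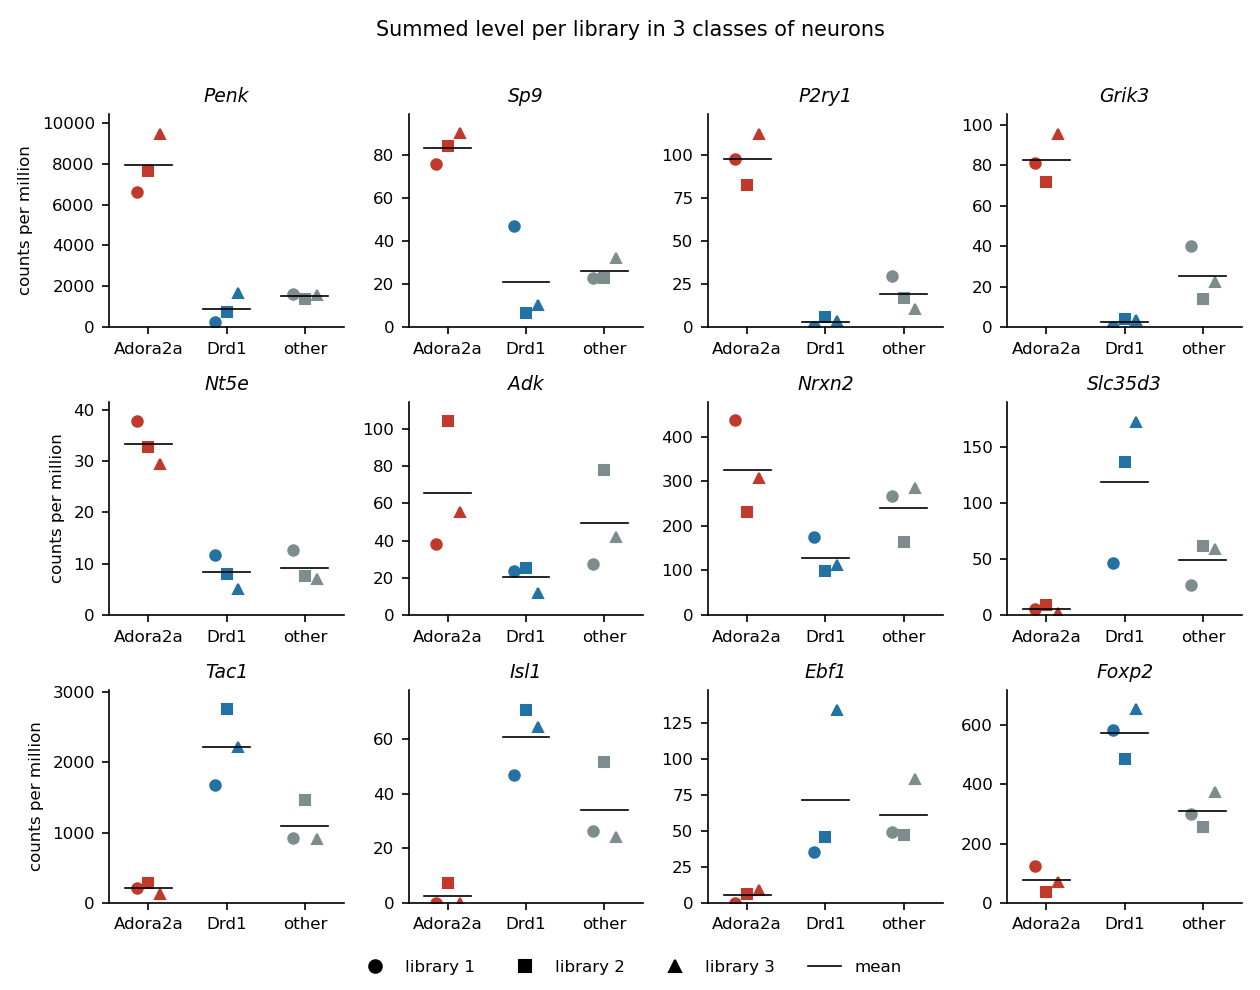
Summed level (CPM, linear axes from 0) of 12 genes in the Adora2a neurons, the Drd1 neurons and all other neurons, 1 marker per library and a line at the mean of the 3 libraries. Penk, Sp9, P2ry1, Grik3, Nt5e and Nrxn2 were highest on average in Adora2a neurons, and Tac1, Isl1, Ebf1, Foxp2 and Slc35d3 lowest.

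Genes of the cAMP pathway were counted next, since the receptor that defines these cells acts through it. Of 35 tested genes of adenosine and cAMP signalling, 20 were higher and 3 lower than in all other neurons, with a median log2 fold change of 0.46. Over all genes 5.46% were higher and 10.5% lower. Among the 20, Pde10a, Arpp21, Pde1b, Adcy5, Rgs9, Gnal and Ppp1r1b were also counted above as spiny neuron markers. Those higher included Nt5e, Pde10a (1.01), the G protein regulator Rgs14 (0.97) and Arpp19, a phosphoprotein regulated by cAMP (0.96), together with Adcy5 (0.75), Gnal (0.67) and Ppp1r1b, the target of cAMP-dependent kinase known as DARPP-32 (0.56). The 3 lower genes were Gnai1, an inhibitory G protein, Slc29a1, a nucleoside transporter, and Prkar1b, a kinase regulatory subunit. Without library 3 the count of higher genes was 9, and with the libraries not blocked 1.

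Against the Drd1 neurons, the other spiny class, differences were found in this pathway and, with larger sizes, in receptors, transcription factors and adhesion genes. Over all genes 249 of 8297 passed in edgeR (3.0%), 111 higher (1.34%) and 138 lower (1.66%) in members. Of the 35 genes of adenosine and cAMP signalling, 5 were higher and 3 lower (22.9% of the list), with a median log2 fold change of 0.04. Gnal (0.04 ± 0.09 SE), Adcy5 (0.03 ± 0.08), Rgs9 (-0.02 ± 0.10) and Ppp1r1b (-0.10 ± 0.08) did not pass. Gnas, the stimulatory G protein, had the largest difference of the list and was looked at after its values were seen. It was 449, 349 and 786 CPM in members and 23.4, 111 and 105 CPM in Drd1 neurons, with no overlap, but did not pass (log2 fold change 2.23 ± 0.37 SE, edgeR adjusted p = 0.176). Gnas passed with DESeq2 (2.78, adjusted p = 0.00673), with the default prior of edgeR (adjusted p = 3.11e-79) and, at 3.03, when library 2 was left out (edgeR adjusted p = 4.66e-05). In all other neurons it was 451, 381 and 721 CPM. Without library 3 only Slc35d3, Tac1 and Pdyn passed, without library 2 there were 40 genes, and without library 1 there were 240. Of the 249, 246 were tested without library 3, and all 246 kept their sign. Of the 24 genes furthest above or below, 24, 13 and 2 passed without library 1, 2 and 3, of 24, 18 and 24 tested. With DESeq2 there were 53, of which 50 were among the 249.

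Among the 5 higher genes of that list, 2 handle adenosine itself. Nt5e was 37.9, 32.8 and 29.4 CPM in members and 11.7, 8.04 and 5.09 CPM in Drd1 neurons, with no overlap (log2 fold change 2.13 ± 0.35 SE, edgeR adjusted p = 4.47e-06). Adk, the kinase that turns adenosine into AMP, was 37.9, 104 and 55.1 CPM against 23.4, 25.3 and 11.9 CPM, again with no overlap (2.07 ± 0.22 SE, edgeR adjusted p = 1.23e-11). Slc29a1, which carries adenosine across the membrane, was lower at 10.8, 18.8 and 22.05 CPM against 23.4, 44.2 and 40.7 CPM (-1.09 ± 0.26 SE). These levels rest on few molecules: Nt5e gave 7, 54 and 16 UMIs in members and 1, 14 and 3 in Drd1 neurons. Nt5e did not pass without library 2 (edgeR adjusted p = 0.341), without library 3 (0.222) or with DESeq2 (0.187). Adk did not pass without library 2 (edgeR adjusted p = 0.182) or library 3 (0.209), and passed with DESeq2 (0.012). Adk was not among the 20 genes of the list higher than in all other neurons. It gave a UMI in 4.46%, 26.2% and 14.7% of members and in 2.74%, 7.52% and 4.14% of Drd1 neurons. In cells with 2 or more Mog UMIs and no neuronal UMI the shares were 5.64%, 19.0% and 27.6%. Thinned to equal depth, these Mog cells held Adk in 5.61%, 13.2% and 3.36%, and members in 5.56%, 10.7% and 7.05%. Their part in the Adk difference was not tested. The other 3 higher genes were Arpp19 (0.67), Arpp21, a second phosphoprotein regulated by cAMP (0.38), and Gnao1, a G protein subunit (0.35), and the other 2 lower ones Gnai1 (-0.79) and Rgs4 (-0.54).

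The receptors with the largest differences were P2ry1 and Grik3. P2ry1 (chr3:61002795-61008982, plus strand, GRCm38) was 97.4, 82.5 and 112 CPM in members and 0, 5.74 and 3.39 CPM in Drd1 neurons (log2 fold change 4.19 ± 0.30 SE, edgeR adjusted p = 6.4e-20). Grik3 (chr4:125490700-125714173, plus strand) was 81.2, 71.6 and 95.5 CPM against 0, 4.02 and 3.39 CPM (4.38 ± 0.32 SE, edgeR adjusted p = 6.68e-19). Every library of members lay far above every library of Drd1 neurons for both genes. Seen per cell, P2ry1 gave a UMI in 10.8%, 20.2% and 26.4% of members and in 0%, 1.83% and 1.18% of Drd1 neurons, and after each cell was thinned to 1000 UMIs in 7.78%, 7.74% and 10.9% of members. Cells with 2 or more Mog UMIs and no neuronal UMI, which should lack these genes, held P2ry1 in 0%, 1.0% and 0% at median depths of 1045, 2010 and 4128 UMIs. Without library 3 neither gene passed (edgeR adjusted p = 0.0634 for each), and without library 2 the P2ry1 difference was 5.09.

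Other receptors and channels differed less. Of 12 tested striatal G protein-coupled receptors, 4 were higher, among them P2ry1, the serotonin receptor Htr2c (1.01) and the histamine receptor Hrh3 (0.54). The adrenergic receptor Adra2c was lower (-0.89), so that 41.7% of this list passed, with 3.0% over all genes. Among 17 glutamate receptor genes only Grik3 passed, and among 11 GABA-A receptor genes none did in edgeR. Of 43 tested channel genes, 3 were higher (6.98%, with 3.0% over all genes). They were the calcium channel subunit Cacna2d2 (1.0), the potassium channel Kcnk2 (0.59) and the AMPA receptor auxiliary subunit Cacng3 (0.50).

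Transcription factors changed in both directions. Of 24 tested, 9 were higher and 7 lower in members (66.7%, with 3.0% over all genes). Sp9 (chr2:73271925-73284706, plus strand) was 75.8, 84.3 and 90.0 CPM in members and 46.8, 6.32 and 10.2 CPM in Drd1 neurons, a log2 difference of 3.29 ± 0.29 SE (edgeR adjusted p = 2.01e-15). The Drd1 value of library 1 stood above the others of its class and rests on 4 UMIs. Sp9 did not pass without library 2 (2.51, edgeR adjusted p = 0.0535) or library 3 (3.31, edgeR adjusted p = 0.424). Pou3f1, a POU domain factor (1.37), Zfhx3 (1.19) and Zfhx4 (1.02) followed. Isl1, a LIM homeodomain factor of direct pathway neurons, was 0, 7.28 and 0 CPM in members and 46.8, 70.7 and 64.4 CPM in Drd1 neurons (-3.66 ± 0.33 SE, edgeR adjusted p = 1.59e-14). Ebf1, an early factor of the same class, was 0, 6.07 and 9.19 CPM against 35.1, 46.0 and 134 CPM (-3.30 ± 0.31 SE). Foxp2 was 125, 37.6 and 71.6 CPM against 585, 487 and 654 CPM (-3.26 ± 0.14 SE). Its relative Foxp1 went the other way, at 1575, 856 and 1626 CPM in members against 924, 605 and 932 CPM (0.71 ± 0.08 SE). Sox2, outside the list, was also higher (2.18 ± 0.31 SE), at 27.1, 52.8 and 23.9 CPM against 11.7, 9.77 and 10.2 CPM. Sox2 did not pass with DESeq2 (adjusted p = 0.46) or without library 3 (edgeR adjusted p = 0.168). Isl1, Ebf1 and Foxp2 did not pass without library 3 either (edgeR adjusted p = 0.168, 0.231 and 0.222).

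Adhesion and guidance genes were split. Of 34 tested, 4 were higher and 7 lower (32.4%, with 3.0% over all genes). The netrin receptors Unc5d (43.3, 38.2 and 33.1 CPM against 0, 4.60 and 3.39 CPM) and Unc5c (log2 fold change 1.46) were higher, and Ntn1, which encodes netrin, was lower (-1.70). Slit2, a repellent ligand, and Robo1, a receptor for it, were lower (-2.68 and -1.03). Nrxn2 and Nrxn3 encode neurexins, presynaptic adhesion molecules, and moved in opposite directions. Nrxn2 was 439, 231 and 309 CPM against 175, 99.4 and 112 CPM (1.35 ± 0.13 SE, edgeR adjusted p = 3.45e-14). Nrxn3 was lower by a small amount (-0.37 ± 0.09 SE). For both genes the libraries of the classes did not overlap, which held for 7.94% of all genes tested. Without library 3, neither Nrxn2 (edgeR adjusted p = 0.222) nor Slit2 (0.4) passed. Unc5d and Unc5c did not pass without library 2 (edgeR adjusted p = 0.131 and 0.213) or library 3 (0.209 and 0.405).

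Peptide precursors are the classic markers of both spiny classes. Of 11 tested peptide and opioid receptor genes, 1 was higher and 5 were lower (54.5%, with 3.0% over all genes). Tac1, the precursor of substance P, was 217, 288 and 123 CPM in members and 1673, 2755 and 2222 CPM in Drd1 neurons (log2 fold change -3.41 ± 0.17 SE, edgeR adjusted p = 5.84e-07). Penk was 269, 735 and 1678 CPM in Drd1 neurons, far below the members in each library. Its log2 difference of 3.16 ± 0.42 SE did not pass in edgeR with the robust prior (adjusted p = 0.173), though the classes did not overlap, and it passed with the default prior (6.79e-200) and with DESeq2 (1.18e-06). Pdyn, the dynorphin precursor, was 0, 34.6 and 3.67 CPM against 608, 569 and 617 CPM. Its difference did not pass either (log2 fold change -4.56 ± 0.50 SE, edgeR adjusted p = 0.0848). Pdyn passed with the default prior (edgeR adjusted p = 9.99e-193), with DESeq2 (-6.48, adjusted p = 0.000281) and on leaving out library 2 (-7.60, edgeR adjusted p = 1.29e-06) or library 3 (-4.21, edgeR adjusted p = 0.035). Members held 57 Pdyn UMIs in library 2, 2 in library 3 and 0 in library 1. Cartpt, the precursor of CART peptides, was higher in members (0.60 ± 0.12 SE). Sst and Npy, interneuron peptides, passed as lower although members were higher in 2 of 3 libraries, with most of their counts in library 2 (Sst 77.7 against 238 CPM there). The opioid receptor Oprd1 was under the filter on low counts, as were Chrm4 and Eya1 of the Drd1 class.

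**Figure D2:**
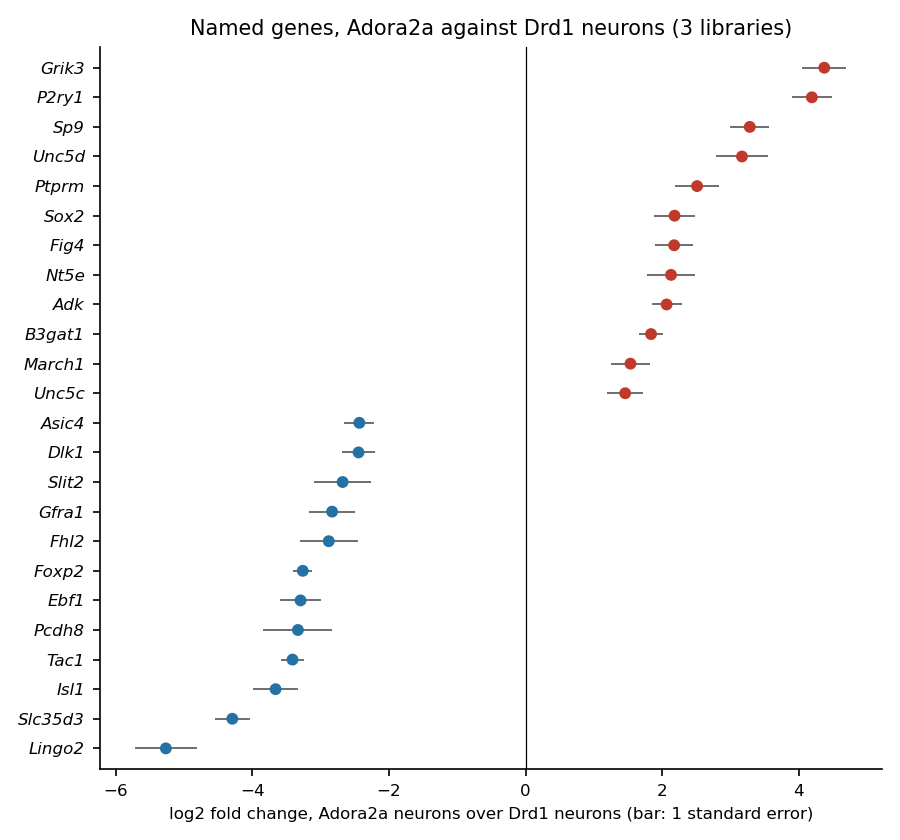
Log2 fold change (horizontal axis, bars of 1 standard error) of the 12 genes furthest above and the 12 furthest below in Adora2a neurons against Drd1 neurons among those that passed. Grik3 and P2ry1 lead above at 4.38 and 4.19, and Lingo2 below at -5.27.

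Of the 12 genes furthest below, Lingo2 was the extreme, with 3 UMIs in members against 138 in Drd1 neurons (45.3 times lower per UMI, exact counting interval 15.2 to 222). Slc35d3, a transporter-like gene of direct pathway neurons, was 5.41, 8.49 and 1.84 CPM against 46.8, 137 and 173 CPM (log2 fold change -4.30 ± 0.26 SE). Isl1, Tac1, Ebf1 and Foxp2 belonged to the same 12. So did Pcdh8, a protocadherin, Fhl2, a LIM domain protein, Gfra1, a receptor subunit for the growth factor GDNF, Slit2, Dlk1, a ligand of the Notch family, and Asic4, an acid-sensing channel subunit, with log2 fold changes from -2.43 to -3.33. All 4 tested genes of the list for Tshz1 neurons (Pcdh8, Foxp2, Col11a1 and Tshz1) were lower, with 1.66% lower over all genes. Tshz1 itself was 81.2, 91.6 and 134 CPM in members against 222, 175 and 347 CPM.

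**Figure D3:**
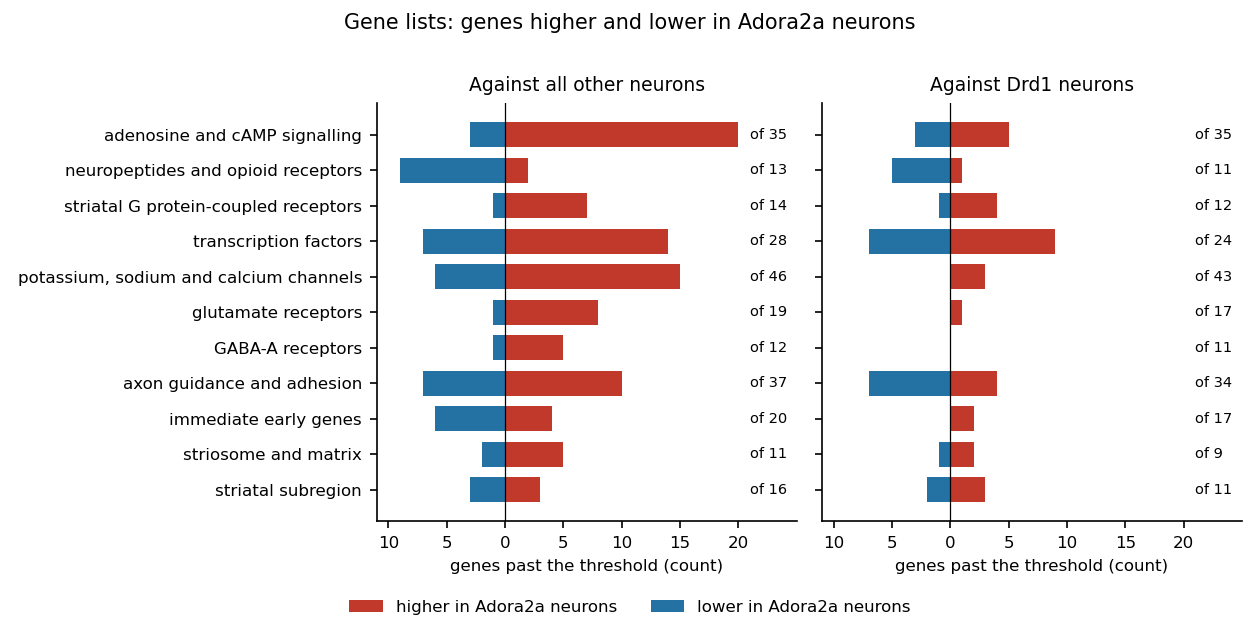
Number of genes per list that passed an edgeR adjusted p of 0.05 as higher (right, red) or lower (left, blue) in Adora2a neurons, against all other neurons and against Drd1 neurons, with the number tested at the right. Adenosine and cAMP signalling had 20 higher of 35 in the first comparison and 5 higher of 35 in the second.

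Further lists were counted in the same comparison. Of 16 spiny neuron markers 5 were higher in members than in Drd1 neurons and none lower. Of 5 further Adora2a neuron genes all 5 were higher, and of 6 Drd1 neuron markers 5 were lower. Over all genes 1.34% were higher and 1.66% lower. Both classes were gated on Adora2a, Gpr6 and Drd1, so the directions of the Adora2a and Drd1 neuron genes are tied to the gates. B3gat1, which makes the HNK-1 carbohydrate, was 200, 110 and 164 CPM in members against 46.8, 24.7 and 67.8 CPM (log2 fold change 1.84 ± 0.18 SE). March1, a ubiquitin ligase, and Ptprm completed the 12 genes furthest above (1.54 and 2.51). Among genes of striatal subregions, Nnat (0.88), Synpr (0.60) and Calb1 (0.44) were higher, and Wfs1 (-0.91) and Dlk1 lower.

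No listed marker of glia or macrophages passed between the spiny classes in edgeR. Oligodendrocyte markers summed to 740 to 801 CPM in members and 807 to 942 CPM in Drd1 neurons, with 0 of 5 passing in edgeR. Astrocyte markers summed to 272 to 437 CPM and 222 to 419 CPM, with 0 of 4 passing. Macrophage markers (Cd74, H2-Aa and Lyz2) summed to 276, 545 and 108 CPM in members and 456, 220 and 17.0 CPM in Drd1 neurons, with no gene of the 3 passing and no common order over libraries. Their part in the differences above was not tested. Immediate early genes rise with activity. Of 17 tested, Dusp1 (0.78) and Nr4a1 (0.67) were higher (11.8% of the list, against 1.34% of all genes), and Egr1 (0.18 ± 0.09 SE), Fos (0.37 ± 0.21) and Arc (-0.09 ± 0.19) did not pass.

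Some genes that differed lie beside the genes of the gate, a pattern looked for after the values were seen. Fig4 (chr10:41188172-41303260, minus strand) lies 115.9 kb upstream of Gpr6 (chr10:41069977-41072285, minus strand). It was 130, 36.4 and 80.8 CPM in members against 11.7, 11.5 and 11.9 CPM in Drd1 neurons (log2 fold change 2.18 ± 0.28 SE, edgeR adjusted p = 7.04e-09). Upb1, the enzyme beta-ureidopropionase (chr10:75401115-75441679, plus strand), lies 66.3 kb downstream of Adora2a on the same strand. It was 32.5, 14.0 and 12.9 CPM in members against 3.44, 2.68 and 0.64 CPM in all other neurons (2.71 ± 0.42 SE, edgeR adjusted p = 4.28e-05). Sfxn1, a mitochondrial serine carrier (chr13:54071869-54108342, plus strand), starts 16.2 kb from Drd1 (chr13:54051183-54055705, minus strand). It was 43.3, 34.6 and 20.2 CPM in members against 152, 87.3 and 129 CPM in Drd1 neurons (-1.65 ± 0.20 SE, edgeR adjusted p = 1.29e-09). Against Drd1 neurons, neither Fig4 (edgeR adjusted p = 0.555) nor Sfxn1 (0.405) passed without library 3. Within 500 kb of Adora2a, Gpr6 and Drd1, 2 of 16 tested genes passed against Drd1 neurons (12.5%, with 3.0% over all genes) and 6 of 20 against all other neurons (30.0%, with 15.9% over all genes). Specc1l, which ends 4.13 kb before Adora2a, was 43.3, 31.6 and 44.1 CPM against 11.7, 28.7 and 22.04 CPM and did not pass (0.48 ± 0.26 SE).

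**Figure D4:**
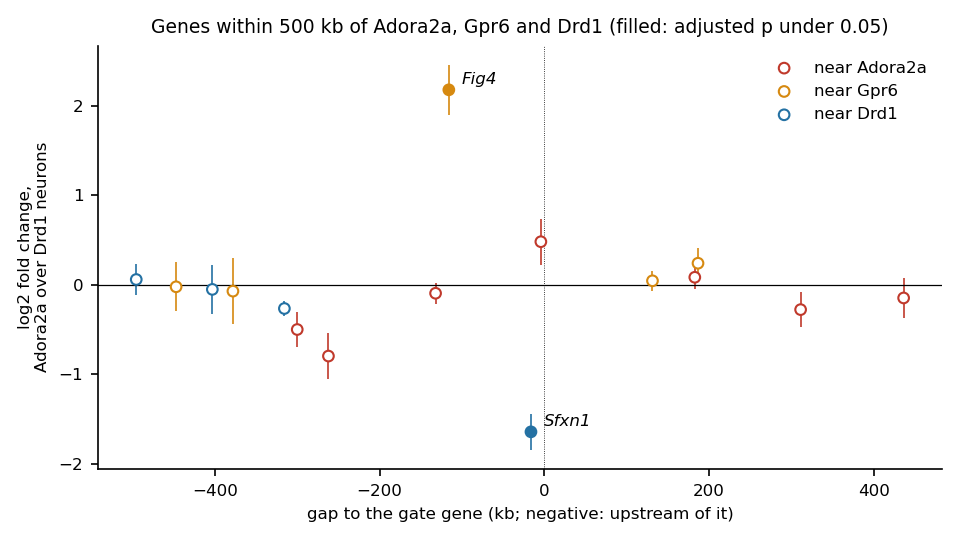
Log2 fold change between Adora2a and Drd1 neurons (vertical axis, bars of 1 standard error) of the 16 tested genes within 500 kb of Adora2a, Gpr6 or Drd1, against the gap in kb, negative when the gene lies upstream of the gate gene. Fig4 near Gpr6 and Sfxn1 near Drd1 are the 2 filled points, which passed, while the other 14 lie between -0.80 and 0.48.

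Members were also compared among themselves. Penk varied from cell to cell in each library. With every cell thinned to 1000 UMIs, which left out 67, 12 and 7 members, the median was 7, 7 and 9 Penk UMIs per member in libraries 1 to 3, and single members ranged from 0 to 26. Drd1 neurons had a median of 0 in each library, with means of 0.20, 0.82 and 1.49. Over 3077 genes with a thinned mean of at least 0.05 UMIs in members of each library, the median ratio of variance to mean was 0.97, 1.02 and 1.02. Penk stood at 2.41, 2.35 and 2.48, and Cartpt at 3.52, 4.23 and 2.56. Genes were ranked by their lowest ratio over the 3 libraries, which put Malat1, a nuclear RNA, mt-Atp6, mt-Cytb and Lyz2, a macrophage gene (2.60, 7.05 and 17.0), first, Cartpt at rank 5 and Penk at rank 7. Genes that varied in some libraries rank lower by this rule, such as Apoe, an apolipoprotein of glia (13.8, 1.59 and 11.4). Tac1, tTA, TEV and the calcium-binding protein Calb1 were also among the first 40.

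**Figure D5:**
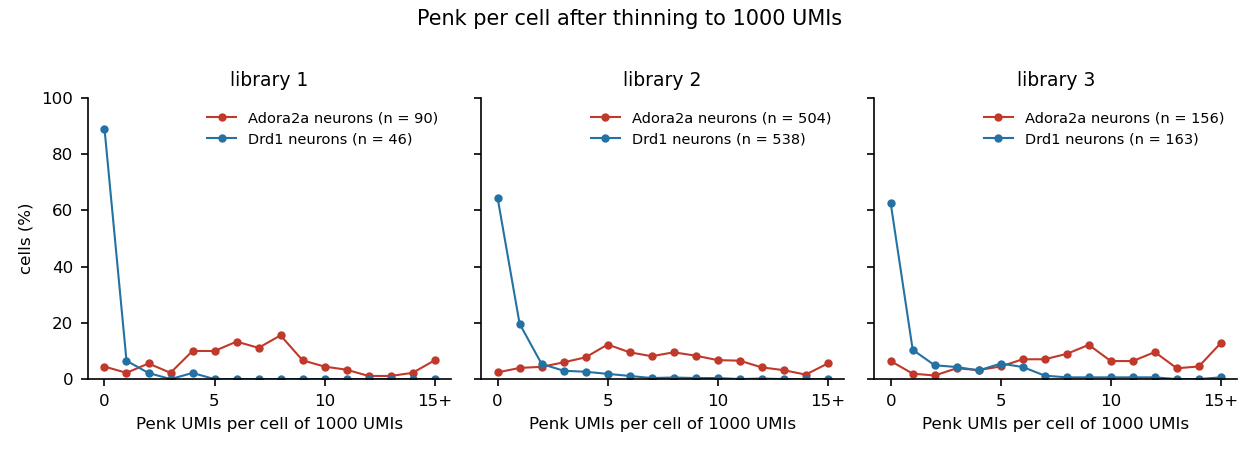
Share of cells (vertical axis, %) with a given number of Penk UMIs after thinning to 1000 UMIs, in Adora2a neurons (red) and Drd1 neurons (blue) of each library, with 15 or more UMIs in the last point. The median of Adora2a neurons was 7, 7 and 9 and that of Drd1 neurons 0 in every library.

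A small number of members lacked Penk. Of these 23 cells, 9 of 10, 4 of 7 and 5 of 6 held Tac1 in libraries 1 to 3, at 2235, 2550 and 1067 CPM. Of the 813 members with Penk, 5.44%, 44.4% and 11.5% held it, at 75.3, 266 and 92.9 CPM. Mog cells, which should lack Tac1, held it in 2.05%, 31.0% and 4.60%, so background was highest in library 2. The cells without Penk had a median of 1946 UMIs against 2614, and Sp9 was 90.4 and 84.9 CPM. Sp9 was seen in 17.4% of the 23 cells and in 20.2% of those with Penk, so its first value rests on few cells.

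Cnr1, the cannabinoid receptor, and Crym, a thyroid hormone binding protein, mark opposite sides of the striatum, and members were split by them. Members with Cnr1 and no Crym numbered 64 and 15 in libraries 2 and 3, and those with Crym and no Cnr1 numbered 158 and 49. Library 1 had only 6 cells on the Cnr1 side and was left out. In edgeR, 1 of 4664 genes passed (0.0214%), with 508 at an unadjusted p under 0.05 and 61 passing with the default prior. That gene was Lyz2, a macrophage gene, at 1052 and 18.6 CPM on the Cnr1 side against 140 and 9.73 CPM. In UMIs this was 241 and 1 against 78 and 2, so the difference rests on library 2. Cartpt was 127 and 18.6 CPM on the Cnr1 side against 465 and 550 CPM on the Crym side (log2 fold change -2.23 ± 0.24 SE, edgeR adjusted p = 0.106). Calb1 was 371 and 372 CPM against 1170 and 802 CPM (-1.50 ± 0.18 SE, edgeR adjusted p = 0.138). Both were lower on the Cnr1 side in both libraries and missed the threshold. With these 2 libraries the sides did not overlap for 32.8% of all genes tested. The Cartpt value of library 3 on the Cnr1 side rests on 1 UMI. Penk did not pass between the sides (-0.24 ± 0.20 SE).

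The share of members among both gated spiny classes was counted per library. It was 68.3% in library 1 (exact 95% Clopper-Pearson interval 61.8 to 74.2), 48.6% in library 2 (45.6 to 51.7) and 49.1% in library 3 (43.6 to 54.6), where the intervals cover counting error only. Thinned to 1000 UMIs before gating, the shares were 66.3% (55.7 to 75.8), 52.9% (47.9 to 58.0) and 58.6% (49.5 to 67.2). Thinning left fewer gated cells, 61 members and 31 Drd1 neurons in library 1, so the intervals were wider. They overlapped, which is no test of equal shares. Both gates need several UMIs of low transcripts, so the shares describe gated cells and not the tissue.

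The reporter features were seen in all neuron classes. mCherry gave a UMI in 4.46%, 19.8% and 12.9% of members, in 2.74%, 25.7% and 15.4% of Drd1 neurons, and in 1.03%, 11% and 4.60% of Mog cells, so part of these shares is at the level of background. A single Mog cell held 75 of the 94 mCherry UMIs of its class, whose summed level was 7.91, 401 and 10.9 CPM. The summed level of mCherry was 43.3, 78.3 and 55.1 CPM in members and did not differ past the threshold from Drd1 neurons (log2 fold change -0.45 ± 0.17 SE, edgeR adjusted p = 0.173). Against all other neurons mCherry was lower (-1.81 ± 0.21 SE, edgeR adjusted p = 0.000106). It did not pass with cells matched on UMIs (-0.61, edgeR adjusted p = 0.16). Nor did it pass with Slc17a7, Mog and Aqp4 excluded in both classes (-2.30, edgeR adjusted p = 0.141). No member held more than 6 mCherry UMIs, while the 2 highest of all other neurons held 1029 and 719 of the 3401 UMIs of that class. TEV (-0.77 ± 0.10 SE) and tTA (-0.80 ± 0.12 SE) were lower in members than in Drd1 neurons, with edgeR adjusted p = 4.11e-09 and 2.22e-07. Without library 3 neither passed (edgeR adjusted p = 0.491 and 0.507), tTA did not pass without library 2 (0.145), and neither passed with no replicate block (1.0 and 0.599).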

How the data were processed

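The authors deposited raw UMI counts, as whole numbers, in 1 pooled matrix of 28001 features and 11625 cells, made with Cell Ranger 3.0 and the mm10 build, per the submitters' processing notes, from 10x Genomics 3′ v2 libraries, per the labels. The annotation release and any thinning to equal depth at pooling are not given in the sources used here. The barcode suffix separates 3 libraries, numbered here by it.

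Kept cells had 300 or more genes detected and no more than 20% of UMIs from mitochondria, and counts were summed per library and class. Sums were fitted in edgeR 4.0.16 by quasi-likelihood (TMM, filterByExpr, robust prior, bias-adjusted deviances), with the library as block because both sums come from the same library, and Benjamini-Hochberg adjustment over all genes tested, called at 0.05. Standard errors are the log2 fold change over the square root of F. CPM was computed over all UMIs of a class. Doublets were kept; an alternative left out the highest Scrublet scores (scanpy 1.11.5), at 0.8% per 1000 cells. DESeq2 1.42.0 was an alternative. The fits were tested on simulated data. Positions are from GENCODE M21 (GRCm38, the same build), where 200 of 203 genes matched by ID.

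Named genes were up to 12 per direction ranked by size of log2 fold change, that passed with the same sign in all libraries and a mean of at least 20 CPM in the higher class, plus up to 4 per list that passed, a few background genes and the 3 construct features. Some further list genes were named after their values were seen. The members and lists were chosen with earlier results of these data known. Gpr52 and Trbc2 were not analysed here, and a few genes that count in the lists are not reported here by name.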

Additional observations from a re-analysis of the deposited data

How the results depend on the processing

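The count of genes that passed against all other neurons (1680) fell to 542 with DESeq2 and to 801 with cells matched on UMIs. It fell to 847 with Slc17a7, Mog and Aqp4 excluded in both classes, and lay between 423 and 1736 with single libraries left out. Against Drd1 neurons (249) it was 53 with DESeq2, 97 without the filter on low counts, 153 in cells of at least 1000 UMIs, 148 with cells matched on UMIs and 139 for members with at least 3 UMIs of Adora2a and Gpr6, and lay between 3 and 240 with single libraries left out. Between the Cnr1 and Crym sides (1) it was 61 with the default prior, 3 with RLE size factors, 3 without the highest Scrublet scores, and 0 with DESeq2, without the filter and with sides set by the larger count; with 2 libraries no library could be left out. With no replicate block the counts were 147, 26 and 0. The cause of these shifts was not tested, beyond the fewer cells, genes or libraries that some of them use. Of values for single genes, 1888 of 2325, 742 of 1045 and 74 of 81 held both sign and call in the 3 comparisons. Those that turned were Sv2b (0.18) and Gad2 (-0.024) with Slc17a7, Mog and Aqp4 excluded in both classes. The others were Npy against Drd1 neurons with DESeq2 (0.017), and Sp9 (0.19) and mCherry (-0.38) between the sides with matched cells. The share of members with a UMI moved by more than its spread over libraries for 15 of 34 genes after thinning, and library 1, at 1069 UMIs per member, limits every per-cell share.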
